A study of Mus musculus with 202 samples.

Results

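The mitochondrial ribosomal proteins are the proteins of the ribosome that works inside mitochondria. The members were the rows of the count table whose symbol begins with Mrpl or Mrps and a number, together with Gadd45gip1, with symbols of pseudogenes left out. The rule gave 78 genes of 23995 gene symbols. Of these, 51 encode proteins of the large subunit and 26 proteins of the small subunit. Mrps36 carries the symbol but is now counted as a subunit of a metabolic enzyme, and it was kept because the rule includes it.

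Mitochondria hold their own ribosome, which translates the few messages of the mitochondrial genome, all of them for subunits of the respiratory chain and ATP synthase. Its RNA is made in the organelle, while all of its proteins are encoded in the nucleus, made in the cytosol and imported. Some of these proteins descend from those of bacterial ribosomes and others exist only in mitochondria. An oocyte holds very many mitochondria, which it passes to the embryo, and its messages for imported mitochondrial proteins are transcribed before maturation, since a mature oocyte is nearly silent in transcription.

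The samples were single mouse oocytes arrested at the second meiotic metaphase (MII), of the strain C57Bl/6J, sequenced with Smart-seq2, which amplifies polyadenylated RNA along its whole length. They came from the F1, F2 and F3 generations descending from founding (F0) females, and the groups are named by what the F0 female received. HFHS+DHT stands for a diet rich in fat and sugar with dihydrotestosterone (DHT), an androgen, HFHS+Veh for the same diet with vehicle, CD+DHT for control diet with DHT, and CD+Veh for control diet with vehicle. Of 202 oocytes, 157 had at least 100000 gene counts and 4000 detected genes and were used. In F1 these were 13 HFHS+DHT, 14 HFHS+Veh, 8 CD+DHT and 10 CD+Veh oocytes. In F2 they were 5 HFHS+DHT, 20 HFHS+Veh, 25 CD+DHT and 16 CD+Veh oocytes, and in F3 they were 13 HFHS+Veh, 13 CD+DHT and 20 CD+Veh oocytes. Groups follow the sample titles. Other labels of 36 oocytes disagree with the title: 15 F1 HFHS+Veh and 5 F2 HFHS+DHT oocytes name the other hormone treatment, and 8 F2 and 8 F3 HFHS+Veh oocytes name another generation.

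The libraries used held 133654 to 16359078 gene counts and 4603 to 13419 detected genes. Oocyte markers had a median sum of 14838 counts per 1000000 gene counts (CPM), while the sum of 31 cumulus and granulosa cell markers had a median of 1298 CPM, most of it Serpine2. Of these 31 markers, 22 had a median of 0 CPM and Areg had no count in any library. One library stood apart, F3 CD+Veh oocyte 21, with 69498 CPM of cumulus markers, 168 CPM of oocyte markers and 14.33% spike-in counts. Values without it stand beside the results of its group where it changed a count or a call.

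The promoters of the 3 most abundant members and of Mrps10, which had a median of 0, are shown because the members differed widely in level. Each is the RefSeq window from 250 bases before to 50 after the annotated start, build GRCm38.p6, written 5′ to 3′ along the gene. Capitals mark matches, on either strand, to a short motif of 1 of 3 kinds of factor known to act on nuclear genes for mitochondrial proteins. The motifs searched were GCGCA and GCGC with any 1 base between them for NRF1, CCGGAAG for the ETS family, which includes GABP, and AANATGGCG, where N is any base, for YY1. The windows below lie at chr17:12916042-12916341 on the minus strand, chr13:14612988-14613287 on the minus strand, chr1:160194965-160195264 on the plus strand and chr17:47368947-47369246 on the plus strand, in the order shown.
Mrpl18: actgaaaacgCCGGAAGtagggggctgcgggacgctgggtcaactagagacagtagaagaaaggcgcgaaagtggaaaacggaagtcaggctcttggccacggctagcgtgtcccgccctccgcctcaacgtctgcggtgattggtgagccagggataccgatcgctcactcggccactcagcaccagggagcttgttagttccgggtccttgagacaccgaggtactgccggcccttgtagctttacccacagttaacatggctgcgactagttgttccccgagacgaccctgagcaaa
Mrpl32: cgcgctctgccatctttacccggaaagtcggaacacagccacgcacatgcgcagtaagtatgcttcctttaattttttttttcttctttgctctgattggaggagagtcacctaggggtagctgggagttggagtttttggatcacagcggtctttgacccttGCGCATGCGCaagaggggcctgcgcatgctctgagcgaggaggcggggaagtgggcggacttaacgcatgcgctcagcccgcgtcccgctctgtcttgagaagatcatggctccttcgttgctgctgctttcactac
Mrps14: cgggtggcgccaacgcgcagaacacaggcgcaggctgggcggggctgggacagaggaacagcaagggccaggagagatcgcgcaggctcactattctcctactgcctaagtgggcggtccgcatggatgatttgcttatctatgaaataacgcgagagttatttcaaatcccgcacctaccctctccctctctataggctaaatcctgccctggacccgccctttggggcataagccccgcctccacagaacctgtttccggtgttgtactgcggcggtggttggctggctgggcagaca
Mrps10: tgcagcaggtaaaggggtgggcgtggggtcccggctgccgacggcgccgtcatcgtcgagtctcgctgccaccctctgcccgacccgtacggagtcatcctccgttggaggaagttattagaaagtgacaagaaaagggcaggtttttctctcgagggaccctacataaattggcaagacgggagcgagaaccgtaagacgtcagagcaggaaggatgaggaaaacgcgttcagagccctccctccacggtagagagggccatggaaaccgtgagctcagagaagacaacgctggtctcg
The Mrpl18 window held an ETS family match and the Mrpl32 window an NRF1 match. Neither the Mrps14 nor the Mrps10 window held a match.

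RefSeq windows were found for 68 of the 78 members, 74 windows in all. A match to any of the 3 motifs was present in 41 of the 74 member windows (55.4%), against 29.8% of the 8831 windows of genes with a median RPKM above 0 in these oocytes and 14.22% of all 32851 windows. The NRF1 motif was in 17.6% of member windows, against 10.7% of the windows of expressed genes. The ETS motif was in 33.8%, against 17.7%, and the YY1 motif in 13.51%, against 5.31%. By level, 6 of the windows of the 10 most abundant members held a match (60%), and so did 4 of the 7 windows found for members with a median of 0 (57.1%). Matches are a description of these letters only, and no binding was measured.

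The members were not expressed evenly. On the RPKM scale, which divides reads by gene length and so allows genes to be compared, the median over 157 oocytes was above 10 for 27 members, 1 to 10 for 33 and below 1 for 18. Among the members 34.6% had a median above 10 RPKM, against 15.02% of all gene symbols, and 10.26% had a median of 0, against 62.5%. The 3 most abundant members gave 29.7% of all member counts and the 10 most abundant gave 54.4%. Mrpl32, Mrps14 and Mrps23 had counts in all 157 oocytes.

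Mrpl18 was the most abundant member, with a median of 171 RPKM (quartiles 78.2 and 206). Its human counterpart has been linked to the import of 5S ribosomal RNA. Mrpl32, which is cut to its mature form by a protease of the inner membrane before it joins the large subunit, had a median of 137 RPKM. Mrps14, a conserved protein of the small subunit head, had a median of 135 RPKM. The genes lie at chr17:12911349-12916345, chr13:14608184-14613165 and chr1:160195215-160202170 (GRCm38). Next came Mrpl21 (chr19:3282901-3292837), a conserved large subunit protein, with 80.0 RPKM, and Mrpl24, a protein near the exit of the peptide tunnel, with 79.6 RPKM. Then came Mrpl53 with 56.5 RPKM, Mrpl3, a conserved protein of the large subunit core, with 54.2 RPKM, and Mrps23, a small subunit protein of mitochondria, with 50.6 RPKM. Mrpl47 had 50.02 RPKM and Mrpl40 had 35.9 RPKM. The interquartile ranges of the first 3 overlap, and their order within single oocytes was not tested. Of the exonic bases of Mrpl53, 88.0% are shared with another gene, and whether reads were counted by strand is not given in the sources used here, so its value may hold reads of that gene.

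**Figure D1:**
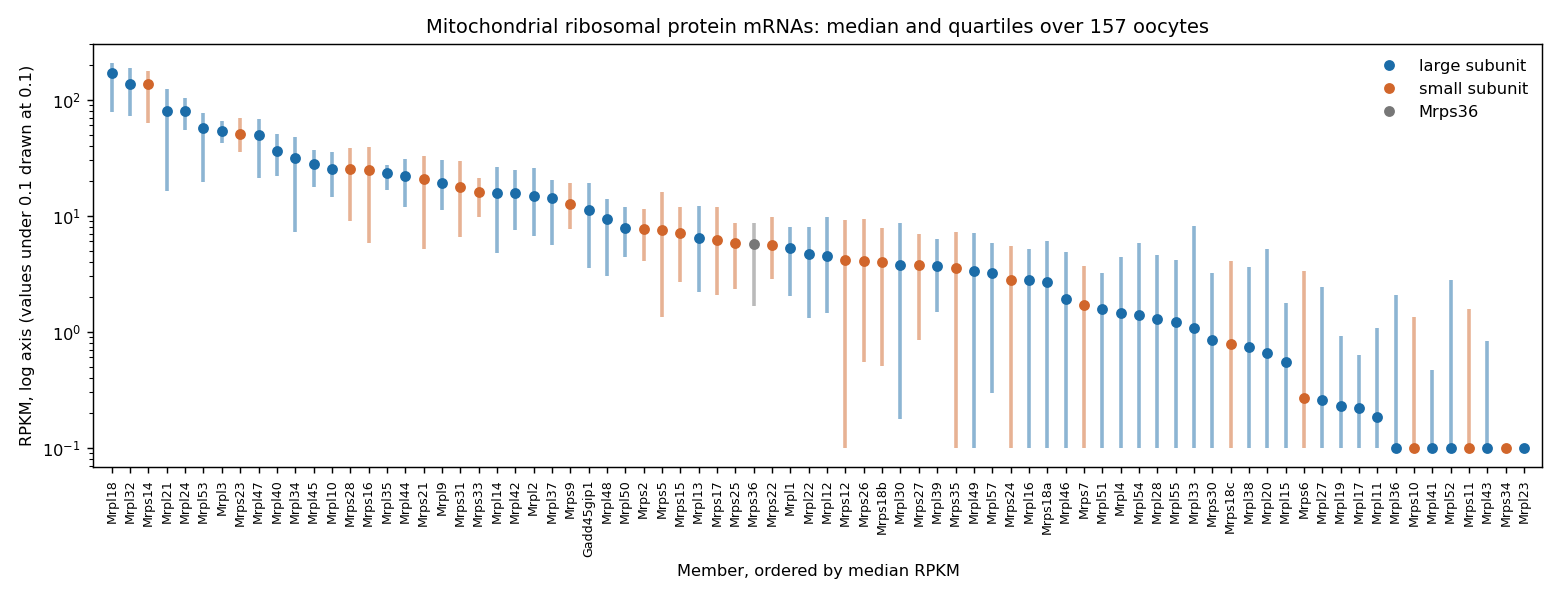
Median RPKM over 157 oocytes (points, log axis) with quartiles (lines) for the 78 members, ordered by level and coloured by subunit; values under 0.1 are drawn at 0.1. Mrpl18, Mrpl32 and Mrps14 lead with 171, 137 and 135 RPKM, and large and small subunit members are mixed along the order down to 8 members with a median of 0.

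The least abundant members included proteins of the ribosome core. Mrpl36, Mrps10, Mrpl41, Mrpl52, Mrps11, Mrpl43, Mrps34 and Mrpl23 had a median of 0 RPKM. Mrpl23, at the rim of the peptide exit tunnel, had a count in 34 of 157 oocytes (21.7%), and Mrps11, a conserved protein of the small subunit platform, in 55 (35.03%). Mrpl36 had a count in 76 oocytes (48.4%). The length used for RPKM could not be recovered for Mrpl23. Large subunit members had a median of 3.79 RPKM and small subunit members of 5.69 RPKM. The 46 members with a bacterial counterpart had a median of 4.94 RPKM and the 31 found only in mitochondria of 4.0 RPKM.

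The 3 paralogues that share the S18 name differed in level. Mrps18b, of the small subunit, had a median of 4.0 RPKM, Mrps18a, of the large subunit, of 2.69 RPKM, and Mrps18c, of the small subunit, of 0.777 RPKM. Mrpl45 (chr11:97315716-97329920), which holds the ribosome to the inner membrane beside the exit tunnel, had 28.0 RPKM. Gadd45gip1 (chr8:84831522-84835482), also at the exit site, had 11.1 RPKM. Mrps22, a small subunit protein of mitochondria, had 5.55 RPKM, Mrpl12, of the stalk that receives translation factors, had 4.49 RPKM, and Mrps12, at the decoding site, had 4.16 RPKM.

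Summed over the members, the messages took a median of 1777 CPM of a library (range 530 to 2654). This is a share of all gene counts, so it says nothing of the amount of RNA in an oocyte. In the 5 F2 HFHS+DHT oocytes, whose titles name no animals and which entered no test, the sums were 1770, 1917, 1827, 1992 and 1885 CPM. In F1 the group medians were 1738 CPM in HFHS+DHT, 1916 CPM in HFHS+Veh, 1815 CPM in CD+DHT and 1940 CPM in CD+Veh oocytes. These groups overlapped, since single F1 oocytes ranged from 1242 to 2472 CPM.

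**Figure D2:**
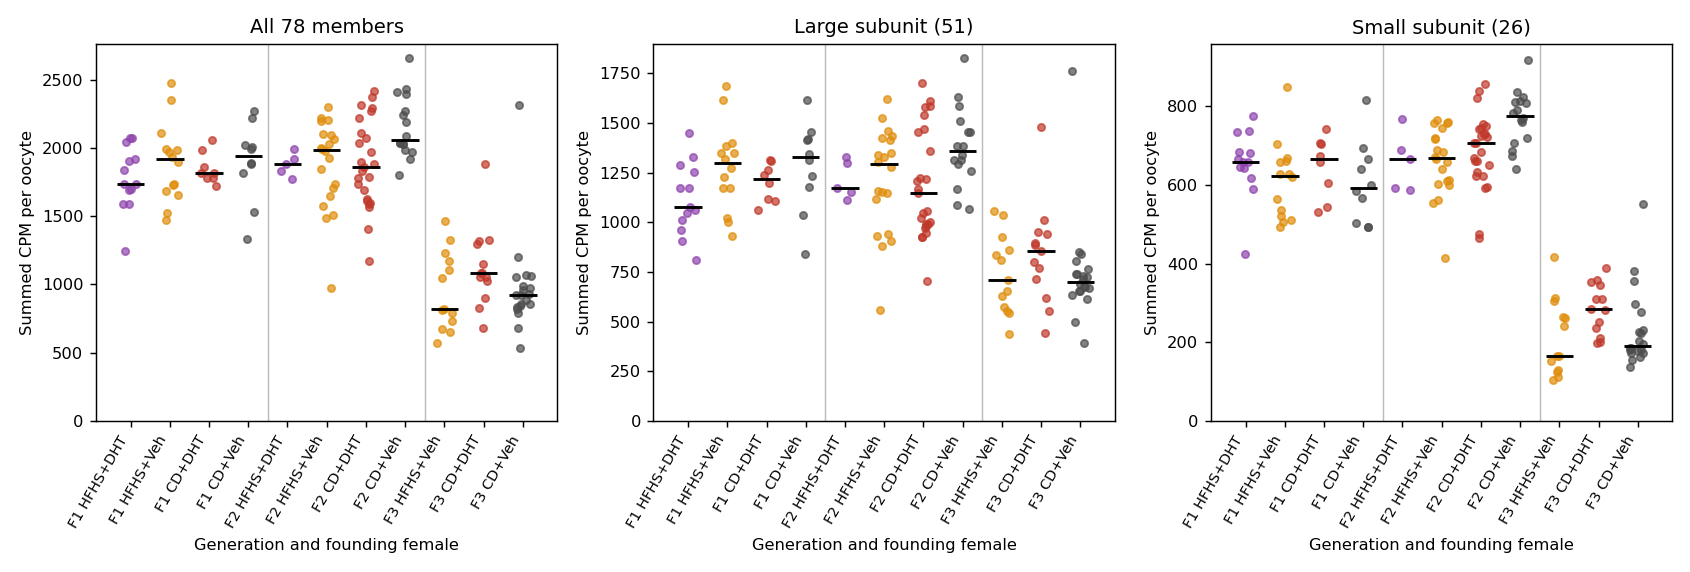
Summed CPM of all members, of the large and of the small subunit in each oocyte (points), with group medians (lines), by generation and treatment of the founding female. Groups of 1 generation overlap, while F3 oocytes have a median of 963 CPM for all members, against 1979 in F2 and 1859 CPM in F1.

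In F2, where titles name the animals, no member passed the test in any of 3 comparisons. Counts were summed per animal and tested with edgeR's quasi-likelihood test with Benjamini-Hochberg adjustment over 11962 genes, among them 77 members. The animals were 5 of CD+DHT (6, 7, 8, 9 and 17), 4 of HFHS+Veh (4, 5, 10 and 19) and 4 of CD+Veh (2, 3, 13 and 14). That a number in a title names an animal is read from the titles. Between CD+DHT and CD+Veh 0 members were called at an adjusted p of 0.05 by edgeR, and 0 genes of all (0%). At an unadjusted p under 0.05 there was 1 member, against 220 genes of all (1.84%). DESeq2 called 0 members and 1 gene, with 1 member and 287 genes at an unadjusted p under 0.05. Limma on log2(value + 1), averaged over the oocytes of an animal without TMM scaling, called 0 members and 0 genes, with 6 members on CPM and 10 on RPKM at an unadjusted p under 0.05, and 69 and 67 of 77 members below 0. The shares of all genes at these limits by limma are not given, and limma's median of all genes on CPM was also below 0 in each of the 3 comparisons. The limma counts of members, here and in the next 2 comparisons, are therefore not read as a result about the members. By edgeR the median log2 fold over members was -0.13, against -0.01 over all genes. Below 0 were 47 of 77 members (61.0%), against 50.7% of all genes.

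Between HFHS+Veh and CD+Veh, edgeR called 0 members and 0 genes (0%), with 1 member and 118 genes (0.986%) at an unadjusted p under 0.05. DESeq2 called 0 members and 0 genes, with 1 member and 163 genes at an unadjusted p under 0.05. By edgeR the median over members was -0.11, against 0.02 over all genes, and 52 of 77 were below 0 (67.5%), against 47.2% of all genes. Limma called 0 members and 0 genes, with 2 members on CPM and 7 on RPKM at an unadjusted p under 0.05, and 65 of 77 below 0 on each scale. These 2 comparisons share the CD+Veh animals. Between CD+DHT and HFHS+Veh, edgeR called 0 members and 0 genes (0%), with 1 member and 125 genes (1.04%) at an unadjusted p under 0.05. DESeq2 called 0 members and 1 gene, with 1 member and 174 genes at an unadjusted p under 0.05. The median over members was 0.00, against -0.02 over all genes. Limma called 0 members and 0 genes here, with 2 members on each scale at an unadjusted p under 0.05 and 51 of 77 below 0. The median standard error of a member's log2 fold was 0.40 to 0.42, so only large differences could have passed. The split of the members depended on the scaling: without TMM scaling 59, 55 and 52 of 77 were below 0 in the 3 comparisons as ordered here, against 47, 52 and 37 with it, and the median of all genes moved with them, to -0.16, -0.05 and -0.10.

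The member with the smallest p against CD+Veh was Mrps25 (chr6:92169525-92184033), a small subunit protein found only in mitochondria. Its summed counts gave 19.44, 17.32, 10.99, 13.94 and 25.49 CPM in CD+DHT animals, 23.84, 19.04, 12.95 and 18.03 CPM in HFHS+Veh animals, and 31.39, 34.13, 22.64 and 25.34 CPM in CD+Veh animals. CD+Veh animals were the highest, and the groups overlapped through animal 17 of CD+DHT and animal 4 of HFHS+Veh. The mean was 17.44 ± 5.54 CPM in CD+DHT (SD, n = 5), 18.5 ± 4.47 CPM in HFHS+Veh (SD, n = 4) and 28.4 ± 5.3 CPM in CD+Veh (SD, n = 4). By edgeR the log2 fold was -0.55 for CD+DHT against CD+Veh (SE 0.24, p = 0.031, adjusted p = 1.0). It was -0.56 for HFHS+Veh against CD+Veh (SE 0.25, p = 0.040, adjusted p = 1.0). Of its exonic bases 69.8% are shared with another gene, so its counts may hold reads of that gene.

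Mrpl30, a conserved large subunit protein, had the smallest p between the treated lineages. It had 2.16, 4.90, 3.04, 2.01 and 2.85 CPM in CD+DHT animals, 5.198, 11.1, 7.63 and 3.08 CPM in HFHS+Veh animals, and 4.43, 8.39, 4.49 and 4.53 CPM in CD+Veh animals. CD+DHT animals were mostly the lowest, and animal 7 of CD+DHT overlapped both other groups. The log2 fold for CD+DHT against HFHS+Veh was -1.11 (SE 0.44, edgeR p = 0.022, adjusted p = 1.0). Without the 8 HFHS+Veh oocytes whose labels name another generation, which removes all of animal 10, it was -0.31.

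Mrps18a (chr17:46110986-46128910) had 2.93, 1.99, 2.75, 0 and 3.28 CPM in CD+DHT animals, 4.18, 5.39, 2.93 and 5.07 CPM in HFHS+Veh animals, and 3.62, 6.42, 4.49 and 5.29 CPM in CD+Veh animals. All CD+DHT animals were below all CD+Veh animals, and they overlapped the HFHS+Veh animals. Animal 9, at 0, had no count in 5 oocytes, which allows up to 0.287 CPM, counting error only. The log2 fold against CD+Veh was -1.08 (SE 0.69, edgeR p = 0.14, adjusted p = 1.0). The smallest p among members higher in CD+DHT than in CD+Veh belonged to Mrpl3, with 107, 105, 65.9, 93.7 and 111 CPM in CD+DHT animals against 105, 84.4, 84.4 and 70.6 CPM in CD+Veh animals. These groups overlapped, and the log2 fold was 0.31 (SE 0.20, edgeR p = 0.14).

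The most abundant members had close means in F2. Mrpl18 averaged 203 ± 20.9 CPM in CD+DHT, 185 ± 33.8 CPM in the HFHS+Veh group and 198 ± 27.3 CPM in CD+Veh animals (SD, n = 5, 4 and 4). The 95% interval of its log2 fold was -0.13 to 0.48 for CD+DHT against CD+Veh and -0.38 to 0.27 for HFHS+Veh against CD+Veh. Mrps14 averaged 330 ± 25.97 CPM in CD+DHT, 316 ± 41.9 CPM in the HFHS+Veh group and 338 ± 109 CPM in CD+Veh animals, and Mrpl32 averaged 120 ± 32.6, 114 ± 27.1 and 135 ± 27.9 CPM in the same order. Mrpl45 had 55.8 ± 26.9 CPM in CD+DHT, 63.7 ± 17.8 CPM in the HFHS+Veh group and 69.2 ± 13.41 CPM in CD+Veh animals.

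Of the members named by rank of p, those lower in CD+DHT than in CD+Veh were also Mrpl37 (log2 fold -0.59) and Mrps7 (-0.73). Those higher were also Mrpl13 (0.48), Mrpl9 (0.36), Mrpl18 (0.17) and Mrpl17 (0.98), of which Mrpl9 and Mrpl18 were below 0 by limma on both scales and Mrpl17 on CPM. For HFHS+Veh against CD+Veh they were Mrpl48 (-0.38), Mrps9 (-0.32), Mrpl34 (-0.43) and Mrpl22 (-0.60), a protein of the tunnel wall, and on the other side Mrpl13 (0.50), Mrps23 (0.23), Mrpl43 (1.16), Mrpl30 (0.40) and Mrpl19 (0.52). For CD+DHT against HFHS+Veh they were Mrpl39 (-0.62), Mrps18a (-0.95), Mrpl43 (-1.22) and Mrpl16 (-0.97), and on the other side Mrpl22 (0.64), Mrpl18 (0.23), Mrpl9 (0.40), Mrpl3 (0.21) and Mrpl17 (0.99). None of these had an unadjusted p under 0.05 by edgeR. Of the paralogues and other members followed in each comparison, Mrps18b had log2 folds of 0.00, -0.58 and 0.59 in the 3 comparisons in the order above, and Mrps18c of -0.01, -0.13 and 0.12. Gadd45gip1 had -0.35, -0.45 and 0.10, Mrpl12 had -0.33, -0.30 and -0.03, Mrps12 had -0.51, -0.60 and 0.09, and Mrps22 had -0.46, -0.09 and -0.38.

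**Figure D3:**
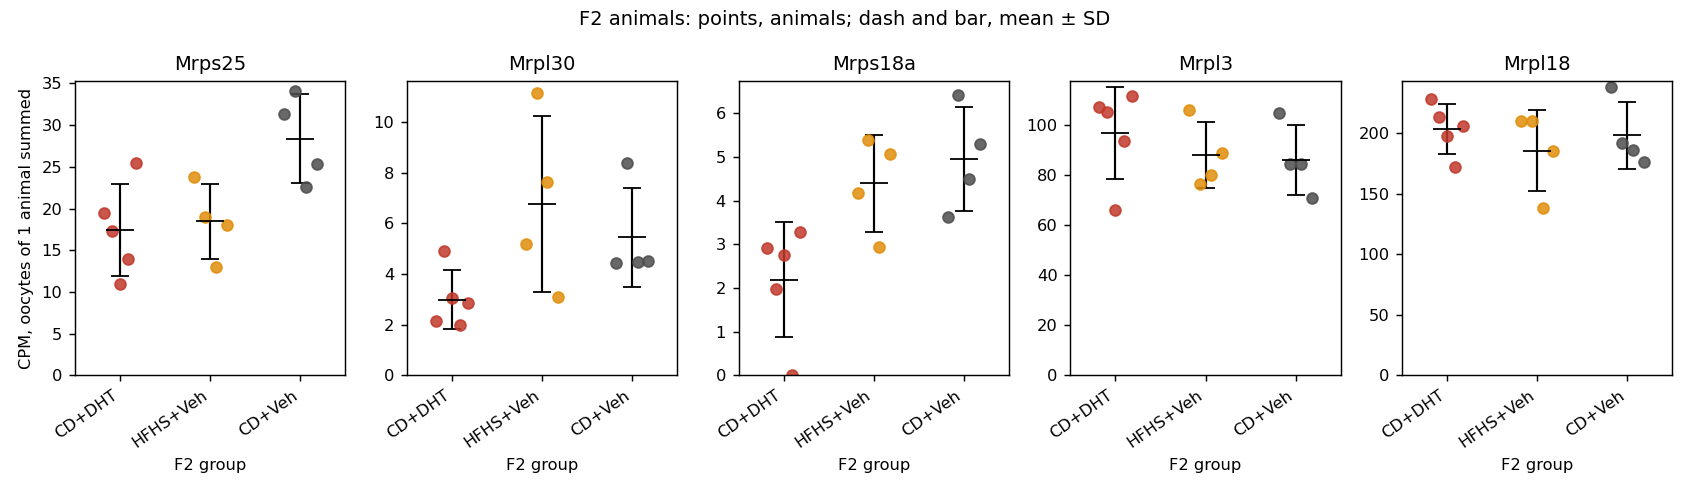
CPM of Mrps25, Mrpl30, Mrps18a, Mrpl3 and Mrpl18 in each F2 animal (points), with mean and SD (dash and bar), for CD+DHT, HFHS+Veh and CD+Veh. Mrps25 averages 17.44 and 18.5 CPM in CD+DHT and HFHS+Veh against 28.4 CPM in CD+Veh, while Mrpl18 lies near 200 CPM in all groups.

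Summed over members, the F2 animals had 2143, 2082, 1708, 1554 and 2175 CPM in CD+DHT, 2116, 1983, 1631 and 2086 CPM in HFHS+Veh, and 2293, 2063, 2154 and 2013 CPM in CD+Veh. Animals 8 and 9 of CD+DHT and 10 of HFHS+Veh were the lowest, HFHS+Veh animal 5 was also below every CD+Veh animal, and the other 5 treated animals lay within the CD+Veh range. The same 3 animals had the fewest detected genes, with medians of 7956, 7771 and 8447 genes per oocyte, against 9182 to 11993 in the other animals. The part of gene detection in these sums was not tested.

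Other genes of mitochondrial translation gave 0 edgeR calls in F2 in each of 4 lists and 3 comparisons. For CD+DHT against CD+Veh, 1 of 20 tested genes for ribosome assembly had an unadjusted p under 0.05, Gtpbp10, a GTPase of large subunit assembly (log2 fold 0.59, edgeR p = 0.022). Of 14 translation factors 1 did, Gfm1, the elongation factor that moves the ribosome along the message (0.40, edgeR p = 0.031). None of 11 mitochondrial tRNA synthetases or of the 4 ribosome subunits with other symbols, such as Dap3, did. For HFHS+Veh against CD+Veh and for CD+DHT against HFHS+Veh no gene of the 4 lists had an unadjusted p under 0.05. Of the others named by rank of p for CD+DHT against CD+Veh, the ribosome assembly genes were Rpusd4 (log2 fold 0.35), Malsu1 (-0.85) and Mtg1 (-0.33). The translation factors were Gatc (0.79), of the enzyme that charges glutamine tRNA, the recycling factor Mrrf (-0.53) and the initiation factor Mtif3 (-0.28). The synthetases were Cars2 (2.1), Rars2 (0.41), Nars2 (-1.80) and Lars2 (-0.39), for cysteine, arginine, asparagine and leucine. The list medians for CD+DHT against CD+Veh were 0.03 for assembly, -0.17 for factors, -0.01 for synthetases and 0.17 for the other subunits. In the F1 and F3 groups 11 to 16 of 25 assembly genes, 6 to 8 of 16 factors, 2 to 3 of 4 other subunits and 2 to 5 of 17 synthetases reached 10 CPM. The list medians lay between -0.26 and 0.35, except for the synthetases in F3 CD+DHT against CD+Veh. There 4 of 5 measured were past 1.5-fold higher (all genes, 15%) and the median was 1.21. Pooling weights oocytes by their counts, and F3 CD+DHT oocytes 14 and 15 held 16359078 and 13853000 gene counts. Oocyte 13 came next with 5855205. Values with oocytes weighted equally are not given for this list.

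F1 titles name no animals, so each F1 group was a single pooled sample with no test. Differences are given as the log2 fold of pooled CPM, with intervals that cover counting error only, and described by whether they passed 1.5-fold among members of at least 10 CPM in either group. A member that reached 10 CPM in only 1 group of a pair could enter only as higher in that group. Mrpl33, Mrps24 and Mrps18a are among those that entered in this way below. In CD+DHT against CD+Veh, 1 of 39 such members was past 1.5-fold higher (all genes, 5.75%) and 5 were past it lower (all genes, 7.07%). The median log2 fold was -0.04 for members and -0.01 for all genes.

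Gadd45gip1 had the lowest fold, with 12.4 CPM in CD+DHT against 31.9 CPM in CD+Veh (log2 fold -1.36, counting interval -1.68 to -1.06). Per oocyte its lowest, median and highest values were 3.77, 14.6 and 23.7 CPM in CD+DHT against 6.89, 34.2 and 87.1 CPM in CD+Veh, so the groups overlapped. Of the exonic bases of Gadd45gip1, 42.0% are shared with another gene, so its counts here and below may hold reads of that gene. Mrps25, whose F1 groups also overlapped, had 11.8 CPM in CD+DHT against 21.8 CPM in CD+Veh (-0.89), with medians of 12.6 CPM in CD+DHT and 22.04 CPM in CD+Veh per oocyte. Mrpl34 (-0.63), Mrps17 (-0.62) and Mrpl48 (-0.60) were just past the threshold, and they were back under it without any 1 of 4, of 3 and of 9 single oocytes. Mrps24 (chr11:5703983-5715680), a conserved small subunit protein, had 12.9 CPM in CD+DHT against 3.58 CPM in CD+Veh (1.85), but the medians per oocyte were 5.74 CPM in CD+DHT and 4.73 CPM in CD+Veh, and with oocytes weighted equally, on RPKM, the log2 fold was 0.99. Above 0 but under the threshold were Mrps16 (0.54), Mrpl37 (0.41), Mrpl49 (0.38) and Mrps9 (0.26). Mrps16 was at -0.058 without CD+DHT oocyte 6, Mrps9 at -0.012 without CD+Veh oocyte 11, and Mrpl37 was at -0.45 with oocytes weighted equally. With that weighting Mrpl34 (-0.24) and Mrps17 (-0.49) were also under the threshold, and Mrps25 was at -1.44 and Mrpl48 at -1.01.

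In F1 HFHS+Veh against CD+Veh, 2 of 39 members were past 1.5-fold higher (all genes, 5.45%) and 2 lower (all genes, 3.48%), and the median was -0.10, against -0.02 for all genes. All 15 F1 HFHS+Veh oocytes carry a hormone label of DHT, so this group rests on the title. Mrpl33 (chr5:31596935-31664384), a small conserved protein of the large subunit, had 10.6 CPM in HFHS+Veh against 1.31 CPM in CD+Veh (3.01, counting interval 2.47 to 3.61). Per oocyte it had 0, 4.17 and 78.4 CPM in HFHS+Veh against 0, 1.71 and 12.6 CPM in CD+Veh as lowest, median and highest, so the groups overlapped and single oocytes stood high. Without CD+Veh oocyte 11 the log2 fold was 3.93, and with oocytes weighted equally it was 1.71. Mrpl14, at the face where the subunits meet, had 18.03 CPM in HFHS+Veh against 11.7 CPM in CD+Veh (0.62). On the lower side Mrpl48 had 6.49 CPM in HFHS+Veh against 13.22 CPM in CD+Veh (-1.03), and Mrps31, a small subunit protein of mitochondria, had 32.8 CPM against 49.7 CPM (-0.60). Mrpl14 and Mrps31 fell under the threshold without any 1 of 3 and of 9 single oocytes. Below it were Mrpl12 (-0.38), Mrps5 (-0.32) and Mrpl47 (-0.32), and on the other side Mrps9 (0.47), Mrpl3 (0.43) and Mrps21 (0.35). With oocytes weighted equally Mrpl48 was at -1.81, Mrps31 at -0.42 and Mrps21 at -0.11.

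In F1 HFHS+DHT against HFHS+Veh, 3 of 35 members were past 1.5-fold (all genes, 11.1%), and all 3 were lower (all genes, 8.62%), with medians of -0.08 and -0.03. Mrpl33 had 2.91 CPM in HFHS+DHT against 10.6 CPM in HFHS+Veh (-1.86), and Mrpl39, a large subunit protein of mitochondria, had 5.82 CPM against 13.8 CPM (-1.25). Mrps5, a conserved protein near the message's entry to the small subunit, was at -0.59 and left the threshold without any 1 of 8 oocytes. Mrpl2, near the peptidyl transferase centre, was at -0.57, and at -1.23 without HFHS+DHT oocyte 10. Mrps25 was at -0.48. On the other side Mrpl49 was at 0.53, Mrps14 had 339 CPM in HFHS+DHT against 257 CPM in HFHS+Veh (0.40), and Mrpl32 (0.32), Mrps33 (0.24) and Mrps23 (0.21) followed. With oocytes weighted equally Mrpl33 was at -1.18, Mrpl39 at -0.64 and Mrps5 at -0.30, and by medians per oocyte Mrps23 was at -0.044.

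In F1 HFHS+DHT against CD+DHT, 1 of 36 members was past 1.5-fold higher (all genes, 5.54%) and 4 were past it lower (all genes, 7.51%), with medians of -0.04 and -0.05. Mrps24 had 4.397 CPM in HFHS+DHT against 12.9 CPM in CD+DHT (-1.55), and Mrpl39 had 5.82 CPM against 14.18 CPM (-1.28). Mrps5 had 9.48 CPM in HFHS+DHT against 18.1 CPM in CD+DHT (-0.93) and Mrpl37 had 15.3 CPM against 26 CPM (-0.78), which became -0.53 without HFHS+DHT oocyte 6. Mrps15 was at -0.57. Gadd45gip1 was the member past the threshold on the other side, with 27.1 CPM in HFHS+DHT against 12.4 CPM in CD+DHT (1.13). Mrpl14 (0.53), Mrpl1 (0.34), Mrpl42 (0.31) and Mrpl24 (0.31) followed it. With oocytes weighted equally Gadd45gip1 was at 0.66 and Mrps5, then under the threshold, at -0.56, and by medians per oocyte Gadd45gip1 was at 0.58. These comparisons share groups, so a value of CD+DHT or CD+Veh that stands apart enters more than 1 of them.

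**Figure D4:**
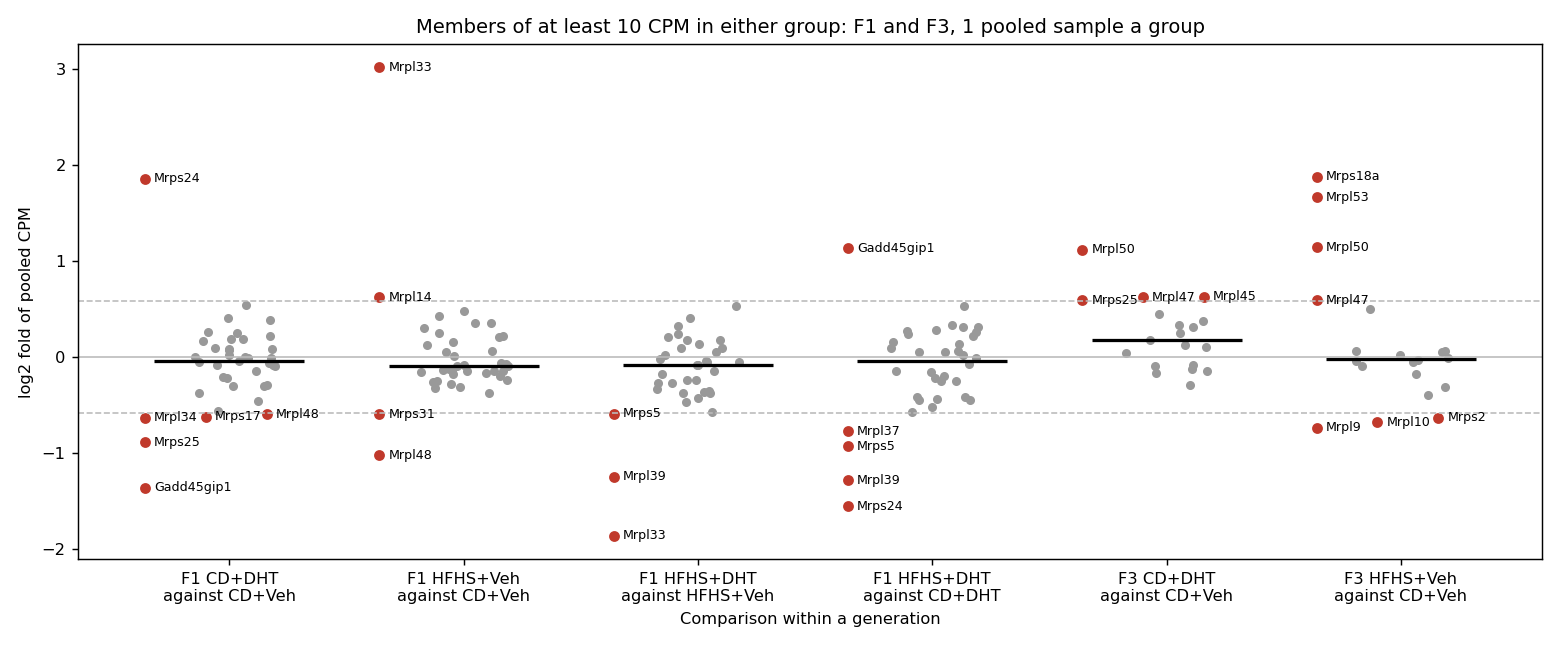
Log2 fold of pooled CPM for members of at least 10 CPM in either group (points) in 4 F1 and 2 F3 comparisons, with the median (black line) and 1.5-fold limits (dashed); members past a limit are red and named. Medians lie between -0.10 and 0.17, and 0 to 5 members pass in a direction.

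In F3, 19 and 20 members reached 10 CPM in the comparisons by founding treatment. In CD+DHT against CD+Veh, 4 of 19 members were past 1.5-fold (all genes, 28.2%), and all 4 were higher (all genes, 15%), with medians of 0.17 and 0.03. Mrpl50 (chr4:49512596-49521093), a large subunit protein of mitochondria, had 29.9 CPM in CD+DHT against 13.8 CPM in CD+Veh (1.12). Per oocyte it had 0, 10.6 and 45.2 CPM in CD+DHT against 1.08, 8.02 and 39.7 CPM in CD+Veh as lowest, median and highest. These ranges overlapped almost wholly, and with oocytes weighted equally the log2 fold was 0.30.

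Mrpl45 had 183 CPM in F3 CD+DHT against 119 CPM in CD+Veh (0.62), with 25.76, 170 and 312 CPM per oocyte in CD+DHT against 14.8, 100 and 678 CPM in CD+Veh. Mrpl47 had 20.9 CPM in CD+DHT against 13.6 CPM in CD+Veh (0.62) and Mrps25 had 11.9 CPM against 7.91 CPM (0.59). Mrpl45, Mrpl47 and Mrps25 went under the threshold without any 1 of 4, of 6 and of 18 single oocytes. The count was 1 without CD+Veh oocyte 22, 2 without CD+Veh oocyte 23 and 3 without CD+Veh oocyte 21, which took Mrps25 to 0.58. With oocytes weighted equally Mrpl45 was at 0.12, and by medians per oocyte Mrpl47 was at 0.23. Mrpl44 (0.44) was next, and on the other side Mrpl32 (-0.29), Mrpl9 (-0.16), Mrpl35 (-0.15), Mrps18b (-0.13) and Mrpl37 (-0.10). The direction of these last members was not settled, since with oocytes weighted equally Mrpl32 was at 0.18 and Mrpl37 at 1.22, by medians per oocyte Mrpl35 was at 0.26, and leaving out single oocytes took Mrpl9 to 0.15 and Mrps18b to as much as 0.12.

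In F3 HFHS+Veh against CD+Veh, 4 of 20 members were past 1.5-fold higher (all genes, 9.18%) and 3 were past it lower (all genes, 18.9%), with medians of -0.02 and -0.06. Mrps18a had 10.18 CPM in HFHS+Veh against 2.78 CPM in CD+Veh (1.87), with 0, 3.47 and 59.0 CPM per oocyte in HFHS+Veh against 0, 1.64 and 25.82 CPM in CD+Veh. Mrpl53 had 15.4 CPM in HFHS+Veh against 4.86 CPM in CD+Veh (1.66), with medians of 10.47 CPM in the HFHS+Veh group and 4.93 CPM in CD+Veh per oocyte. Mrpl50 had 30.4 CPM in HFHS+Veh against 13.8 CPM in CD+Veh (1.14), and Mrpl47 was at 0.59. Mrpl47 went under the threshold without any 1 of 13 single oocytes, CD+Veh oocyte 21 (0.58) among them, and with oocytes weighted equally (0.44). Both F3 comparisons share the CD+Veh oocytes, so a common direction of Mrpl50 or Mrpl47 may come from that group.

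The F3 HFHS+Veh oocytes used, 13 of 24, came from animals 22 (5 oocytes) and 26 (8 oocytes). The titles of this group also name another animal, none of whose oocytes passed the filter. Mrps18a had 5.01 and 16.4 CPM in animals 22 and 26, Mrpl50 had 34.6 and 25.34 CPM, and Mrpl45 had 149 and 191 CPM, so for Mrps18a the 2 animals differed by more than 1.5-fold. On the lower side Mrpl9 (-0.74), Mrpl10 (-0.68), which bears the stalk, and Mrps2 (-0.64) were past the threshold, and Mrpl40 (-0.40) and Mrpl37 (-0.31) were not. Mrps2 and Mrpl10 went under it without any 1 of 9 and of 2 single oocytes, Mrpl10 was at -0.53 by medians per oocyte, and Mrpl37 was at 0.13 with oocytes weighted equally. Without the HFHS+Veh oocytes whose labels name another generation, all of animal 22, 7 members were past 1.5-fold higher and 1 lower, and the median was 0.22. The shares of all genes are not given for this set of oocytes. Mrpl9 was then at -0.39 and Mrpl10 at -0.56.

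The widest difference in the members' summed level among these groups lay between F3 and the earlier generations, and it was described after its values were seen. The sum of all members had a median of 1859 CPM in F1 (n = 45), 1979 CPM in F2 (n = 66) and 963 CPM in F3 (n = 46). Without F3 CD+Veh oocyte 21 the F3 median was 955 CPM. The large subunit sum had medians of 1234, 1268 and 725 CPM in F1, F2 and F3, and the small subunit sum of 644, 707 and 225 CPM. F3 oocytes ranged from 530 to 2311 CPM, or to 1878 CPM without oocyte 21, and F1 oocytes from 1242 to 2472 CPM. The ranges overlapped, but 24 of 46 F3 oocytes were below every F1 and F2 oocyte. Only 2 F3 oocytes were above the lower quartile of the F1 and F2 oocytes together, 1733 CPM. The labels name no library batch, and a generation and any batch it was prepared in cannot be told apart.

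Each F3 group was set against the F1 group of the same founding treatment. Genes entered at 10 CPM or more in either group, so a member that reached 10 CPM only in F1 could only be lower in F3. Likewise, a member that reached it only in F3 could only be higher in F3. Within F3, 19 and 20 members reached 10 CPM in the comparisons by founding treatment, fewer than entered here. How much of the member counts and medians comes from this rule was not tested. In CD+DHT, 3 of 37 members were past 1.5-fold higher (all genes, 30.9%) and 25 were past it lower (all genes, 30.8%), with a median of -1.47, against 0.05 for all genes. In HFHS+Veh, 2 of 36 were past it higher (all genes, 27.8%) and 29 lower (all genes, 38.4%), with a median of -1.69, against -0.17. In CD+Veh, 2 of 38 were past it higher (all genes, 29.1%) and 28 lower (all genes, 32.1%), with a median of -1.63, against -0.01. Of the 33 members in all 3 comparisons, 20 were past 1.5-fold lower in each of them. The share of all genes lower in all 3 was not counted, and in the single comparisons it was 30.8%, 38.4% and 32.1%.

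The most abundant members were among those lower in all 3 comparisons. Mrpl18 had 50.6 CPM in F3 HFHS+Veh against 175 CPM in F1, 52.7 CPM in F3 CD+DHT against 179 CPM in F1, and 49.0 CPM in F3 CD+Veh against 207 CPM in F1. In CD+Veh oocytes its lowest, median and highest values were 26.83, 47.9 and 85.9 CPM in F3 against 13.8, 192 and 223 CPM in F1. The F1 median was above every F3 oocyte, and the ranges overlapped at the low end. Mrps14 had 65.6, 64.6 and 62.8 CPM in the same 3 F3 groups against 257, 309 and 273 CPM in F1, and Mrpl32 had 44.1, 36.3 and 44.4 CPM against 123, 151 and 134 CPM.

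In CD+Veh the lowest folds were those of Mrpl21, with 8.51 CPM in F3 against 106 CPM in F1 (-3.64), Mrps5 (1.46 against 17.9 CPM, -3.61), Gadd45gip1 (3.43 against 31.9 CPM, -3.22), Mrpl34 (-3.19) and Mrpl53 (-3.05). In CD+DHT they were Mrps5 (-3.81), Mrpl21 (-3.45), Mrpl12 (-3.41), Mrps31 (-3.10) and Mrps24 (-2.85). Without F3 CD+DHT oocyte 22 Mrps5 was at -4.52. In HFHS+Veh they were Gadd45gip1 (-3.85), Mrps31 (-3.45), Mrps28 (-3.41), Mrpl21 (-3.38) and Mrpl33 (-3.34), which was at -4.22 without F3 oocyte 2 of animal 22.

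A few members went the other way. Mrpl45 had 183 CPM in F3 CD+DHT against 61.4 CPM in F1 (1.57), 168 CPM in F3 HFHS+Veh against 59.0 CPM in F1 (1.51) and 119 CPM in F3 CD+Veh against 65.6 CPM in F1 (0.86). Mrps18b was at 1.29, 0.79 and 0.93 in the same order, and Mrpl35 at 0.09, 0.36 and 0.31. These 3 were the members above 0 in all 3 comparisons, and the share of all genes above 0 in all 3 was not counted. Mrps2 (0.84 in CD+DHT, 0.48 in CD+Veh), Mrpl50 (0.33 in CD+DHT, 0.45 in HFHS+Veh), Mrpl37 (0.47 in CD+Veh) and Mrps18a (0.57 in HFHS+Veh) were above 0 as named there. With oocytes weighted equally Mrpl37 in CD+Veh was at -0.58 and Mrpl50 in CD+DHT at -0.30. By medians per oocyte Mrpl50 in HFHS+Veh was at -0.21 and Mrpl35 in CD+Veh at -0.13, Mrps2 in CD+DHT was at 0.21, and without single oocytes Mrpl35 in CD+DHT was at -0.38 to 0.50.

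The difference between F3 and F1 ran with gene length over all genes. Over all genes shorter than 750 bases, by the length implied by the authors' RPKM, the median log2 fold was -2.64 in CD+DHT, -2.72 in HFHS+Veh and -2.68 in CD+Veh, and over genes longer than 5000 bases it was 0.21, 0.26 and 0.29. Members are short, with a median implied length of 1045 bases, against 2855 bases for all genes. In the same order, members under 750 bases had medians of -2.238, -3.102 and -2.536, against -2.643, -2.719 and -2.676 for all genes of that length. These members were thus above their class in CD+DHT and CD+Veh and below it in HFHS+Veh. Members of 750 to 1000 bases had -1.963, -1.633 and -2.384, against -1.621, -1.685 and -1.752. Members of 1000 to 1500 bases had medians of -0.66, -1.12 and -1.17, against -0.59, -0.75 and -0.74 for all genes of that length. Members of 1500 to 2000 bases stood further below, at -1.76, -1.36 and -0.84, against -0.003, -0.40 and -0.24. The 4 members of 2000 to 3000 bases had medians of 0.59, 0.08 and -0.03, against 0.28, -0.03 and 0.15. The 2 of 3000 to 5000 bases had -0.50, -0.82 and -0.76, against 0.21, 0.08 and 0.21. Set against the median of their own length class, 23 of 37 members were lower in CD+DHT (median difference -0.14), 25 of 36 in HFHS+Veh (-0.38) and 26 of 38 in CD+Veh (-0.35). Mrpl45, with an implied length of 2416 bases, and Mrpl35 are among the longer members. The part of gene length in each member's fold was not tested further.

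**Figure D5:**
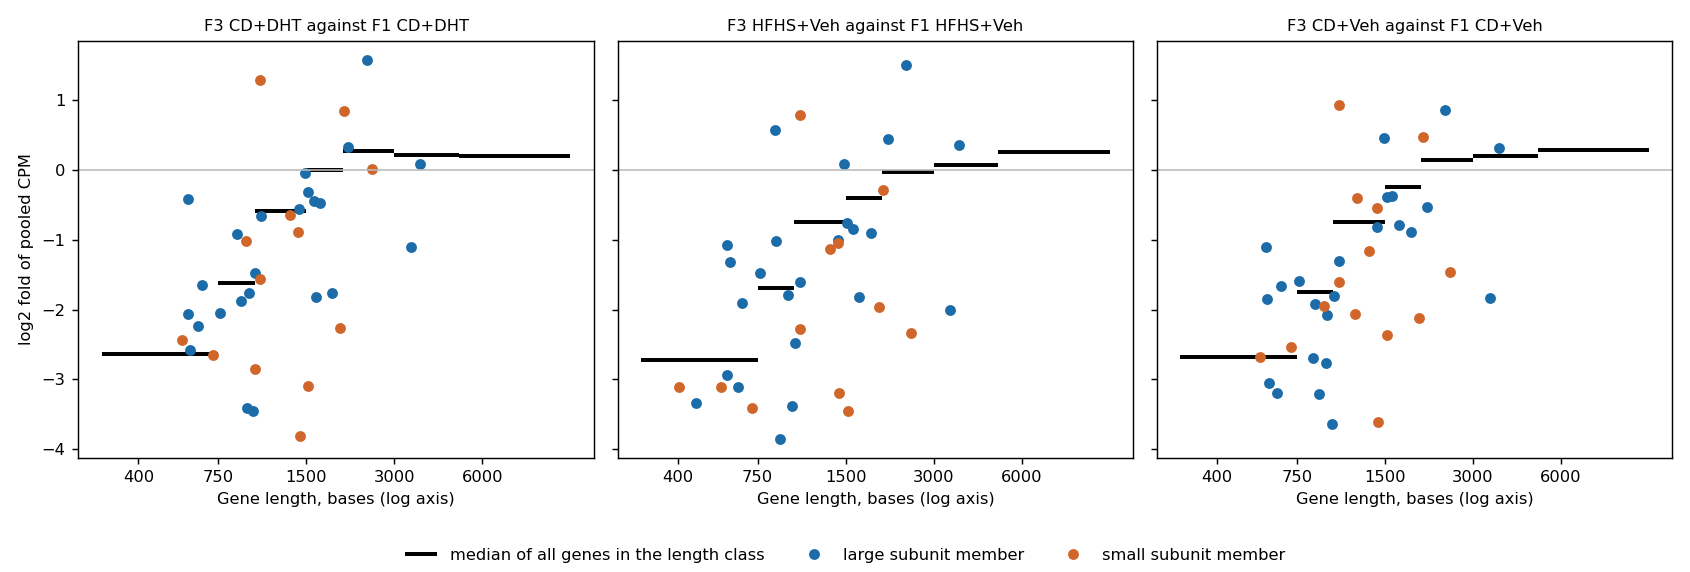
Log2 fold of pooled CPM, F3 against F1, for members (points, by subunit) against gene length in bases (log axis), with the median of all genes in each length class (black lines), for 3 founding treatments. The medians of all genes climb from between -2.72 and -2.64 under 750 bases to between 0.21 and 0.29 over 5000 bases, and most members lie below 0.

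Of the other gene lists set beside the members, 2 also had medians below 0 in all 3 comparisons. The cytosolic ribosomal proteins had median log2 folds of -2.88, -2.91 and -2.47 in CD+DHT, HFHS+Veh and CD+Veh, and nuclear subunits of the respiratory chain of -2.46, -3.0 and -2.67. In the same order, these medians rest on 12, 13 and 11 of 85 cytosolic and 37, 47 and 36 of 84 respiratory genes. The remaining lists were not below 0 in every comparison. Genes for mitochondrial ribosome assembly had medians of 0.15, -0.65 and -0.08, and mitochondrial translation factors of 0.01, -0.32 and -0.52. Mitochondrial tRNA synthetases had 2.096, -0.30 and -0.52, and the other ribosome subunits 0.42, -0.60 and 0.005, each from 5 or fewer measured genes. The synthetase value of CD+DHT comes from the same F3 pool as above, to which oocytes 14 and 15 gave the most counts. By subunit the members had medians of -1.29, -1.40 and -1.63 for the large and -1.56, -2.30 and -1.78 for the small subunit. F3 libraries also had fewer detected genes, with medians of 9539, 10037 and 7606 in F1, F2 and F3, and fewer detected members (65, 67 and 52.5). Their sum of oocyte markers was lower (17546, 17086 and 11605 CPM) and that of cumulus markers higher (1449, 890 and 2677 CPM). Single oocyte markers went both ways: Gdf9 (6537, 5471 and 4224 CPM) and Dppa3 (3880, 3899 and 1399 CPM) were lowest in F3, while Bmp15 (1405, 1408 and 2728 CPM) and Nlrp5 (293, 212 and 846 CPM) were highest. Serpine2 (918, 623 and 1297 CPM) and Spp1 (240, 0.926 and 794 CPM) had the largest medians of the cumulus markers in F3. Of the 31 cumulus markers 19 had a median of 0 in every generation. The part of these values in the member levels was not tested.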

How the data were processed

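The authors deposited raw, unscaled counts for every gene symbol and spike-in in each oocyte, and a table of RPKM values (reads per kilobase of gene, scaled to the library's reads) of the same libraries. Per the submitters' processing notes, STAR 2.4.2a, Seurat 2.0 and build mm10 were used. The sources used here do not give the counting program, the annotation or the use of strand. The other tables of normalised values that they deposited were not used. CPM were computed over gene rows, without spike-ins, in oocytes of at least 100000 counts and 4000 genes. Levels between genes are from the deposited RPKM. The counts are reads without molecular identifiers, so Poisson 95% intervals and the limits given by 3 counts cover counting error only. No pair of libraries within a group held identical values.

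For F2, counts were summed per animal and tested with edgeR 4.0.16 (TMM scaling, quasi-likelihood test, 1 fit over 3 groups, R 4.3.3). DESeq2 1.42.0 and limma 3.58.1 (mean log2 of value + 1, pseudocount 1) were alternatives. F1 and F3 counts were pooled per group, using Python 3.11.15, pandas 2.3.3 and scipy 1.17.1. The F2 and pooled steps were tested on simulated data. That a title's number names an animal is an inference, and p-values measure the spread between those animals only. The members and lists were chosen with earlier results of these data known, and the F3 against F1 comparisons were added after their values were seen.

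Named members were the 10 highest and 5 lowest by median RPKM (8 tie at 0), the 5 of smallest edgeR p in each direction (F2), the 5 largest pooled folds in each direction among members of at least 10 CPM and with a count in at least 50% of the oocytes of a group (F1, F3), and 8 fixed members. Gene positions are from GENCODE vM21 (GRCm38), promoters from RefSeq (GRCm38.p6).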

Additional observations from a re-analysis of the deposited data

Results flagged for a closer look

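In groups of 4 to 5 F2 animals, 1 animal stood far from the others in 4 of 63 sets of values checked by Dixon's test. That test flags about 1 in 20 by chance. The named F2 members were 19, and the full make-up of the 63 sets is not given. Mrpl13 had 16.8 CPM in HFHS+Veh animal 10, against 8.65 to 9.87 CPM in the other HFHS+Veh animals. Mrpl16 had 11.9 CPM in the same animal, against 3.63 to 4.13 CPM. Mrpl43 had 4.59 CPM in HFHS+Veh animal 5, against 0.776 to 1.23 CPM. Mrpl30 had 8.39 CPM in CD+Veh animal 3, against 4.43 to 4.53 CPM. All oocytes of animal 10 and 3 of animal 5 carry labels of another generation.

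Mrps25 went in opposite directions in CD+DHT against CD+Veh in F1 and F3. Its log2 fold of pooled CPM was -0.89 in F1 and 0.59 in F3, a difference of -1.48. The difference was not tested, since the titles name no animals in these groups, and the F3 value fell under 1.5-fold without any 1 of 18 single oocytes. In F2 the log2 fold was -0.55 (edgeR adjusted p = 1.0).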

How the results depend on the processing

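No paired analysis was possible because the numbers in the titles name oocytes, or animals of 1 group only. The F2 count of 0 called members stayed 0 under every alternative run and, leaving out each animal in turn, ranged from 0 to 0 in the 3 comparisons. Without TMM scaling the median of all genes moved to -0.16, -0.05 and -0.10 and that of members to -0.25, -0.17 and -0.08 (CD+DHT against CD+Veh, HFHS+Veh against CD+Veh, CD+DHT against HFHS+Veh), and 59, 55 and 52 of 77 members were below 0. With limma on log2(CPM + 1) the member medians were -0.45, -0.32 and -0.17, and those of all genes -0.27, -0.13 and -0.14. In that test Mrpl17 (-0.060), Mrpl18 (-0.092) and Mrpl9 (-0.52) turned below 0 for CD+DHT against CD+Veh, as did Mrpl9 (-0.036) for CD+DHT against HFHS+Veh. On RPKM the values were -0.10 for Mrpl18, -0.47 for Mrpl9 and, against HFHS+Veh, -0.013 for Mrpl9. Without oocytes labelled with another generation, Mrpl30 (-0.39) and Mrpl43 (-0.12) turned for HFHS+Veh against CD+Veh and Mrpl43 (0.062) for CD+DHT against HFHS+Veh. The cause of these turns was not tested.

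Pooled medians moved for F1 HFHS+Veh against CD+Veh with a minimum of 1 CPM (0.16), and for F3 HFHS+Veh against CD+Veh without oocytes labelled with another generation (0.22). For F3 against F1 they became -1.09 (mean CPM), -0.92 (mean RPKM) and -0.66 (minimum 20 CPM) in CD+DHT, -1.98 (median CPM) in CD+Veh, and -1.35 (TMM) and -1.40 (minimum 20 CPM) in HFHS+Veh. With TMM the medians of all genes were 0.29 in CD+DHT, 0.25 in CD+Veh and 0.11 in HFHS+Veh.

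Counts of members past 1.5-fold, in both directions together, moved with the minimum level. With 1 CPM they were 20 (F1 CD+DHT against CD+Veh, reported 6), 27 (F1 HFHS+Veh against CD+Veh, 4), 21 (F1 HFHS+DHT against HFHS+Veh, 3), 23 (F1 HFHS+DHT against CD+DHT, 5), 27 (F3 CD+DHT against CD+Veh, 4), 28 (F3 HFHS+Veh against CD+Veh, 7), and, F3 against F1, 60 in CD+DHT (28), 66 in HFHS+Veh (31) and 59 in CD+Veh (30). With 20 CPM they were 3, 1, 0 and 2 in the 4 F1 comparisons, and 15 in CD+DHT and 19 in CD+Veh for F3 against F1. With mean CPM they were 10, 10, 9 and 11, with mean RPKM 10, 10, 8 and 12 in the 4 F1 comparisons, and with mean CPM 8 in F3 CD+DHT. With median CPM they were 9, 9 and 12 in the last 3 F1 comparisons and 4 in F3 HFHS+Veh. The shares of all genes under these settings are not given.

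Leaving out 1 oocyte at a time, the F1 medians ranged from -0.11 to 0.02, -0.15 to -0.04, -0.23 to -0.02 and -0.11 to 0.03 in the same order. The counts ranged from 3 to 8, 2 to 8, 2 to 10 and 5 to 9. Counts that moved by over 1.5 times came without CD+DHT oocyte 6 (3) in the first, HFHS+Veh oocytes 1 (2) and 11 (8) and CD+Veh oocyte 6 (7) in the second, HFHS+DHT oocytes 10 (10) and 7 (5) in the third, and HFHS+DHT oocytes 12 (9), 10 (8) and 6 (8) in the fourth comparison. In F3 the medians ranged from 0.12 to 0.25 (CD+DHT) and -0.07 to 0.04 (HFHS+Veh), and the counts from 1 to 5 and 3 to 8 (3 without HFHS+Veh oocyte 1 of animal 22). For F3 against F1 the medians ranged from -1.55 to -1.23 in CD+DHT, -1.84 to -1.46 in HFHS+Veh (-1.78 without F1 oocyte 11) and -1.72 to -1.58 in CD+Veh, with counts of 27 to 29, 30 to 34 and 28 to 34. Of single members under alternatives other than leaving out 1 oocyte or animal, 882 values held, 167 moved and 10, all in F2, reversed. Many of the 882 could not have changed. Another minimum level leaves a member's pooled fold as it is. Leaving out the library rich in cumulus markers changes nothing in comparisons without it. Such values also count among the 759 pooled values below, so these totals are no measure of stability. A change of sign was seen in 10 of 300 values of F2 (7 of 30 results) and 23 of 759 pooled values (11 of 90 results), all 23 with oocytes weighted equally or by medians. Leaving out 1 oocyte or animal changed the sign of 0 of 390 values of F2 and 14 of 2312 pooled values (8 of 90 results). Depth limits the low members: 8 had a median of 0, and F1 and F3 comparisons rest on members of at least 10 CPM.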
